A study of Mus musculus with 656 samples.

Results

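Nfkbiz encodes IκBζ, a nuclear member of the IκB family, and is described here across stimulus label, SC-514 concentration and time in mouse 3T3 fibroblasts. It is 1 gene of the 22070 in the count table and was matched by its Ensembl identifier, ENSMUSG00000035356.17. The gene was chosen by its level in stimulated cells without inhibitor, which differed widely between the IL-1β and TNF-α labels. Those values and the levels at 0 µM against unstimulated cells are therefore given as a description, without a test. The tests concern the response to SC-514 and the label difference in the libraries with inhibitor. Tests of SC-514 against 0 µM take as their reference the same 0 µM libraries whose levels chose the gene. Comparisons of 25 with 100 µM, of 60 with 120 min at 100 µM, and of the labels with inhibitor use no such libraries. Those of 100 µM with unstimulated cells reuse the unstimulated libraries, against which the 0 µM levels were described. Earlier results of these data were known at the choice, so none of these tests stands as independent support for it.

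The classical IκB proteins hold NF-κB in the cytoplasm until the kinase IKKβ marks them for destruction. IκBζ works differently: it is made after stimulation, enters the nucleus and, bound mostly to NF-κB p50, is needed for a later wave of genes such as those for IL-6, lipocalin-2 and several chemokines. Its own transcription is an early NF-κB response, and its mRNA is short-lived because the endonuclease Regnase-1, encoded by Zc3h12a, and AU-rich element binding proteins degrade it. In macrophages and several other cell types, IL-1 and Toll-like receptor ligands were strong inducers of Nfkbiz and TNF-α was a weak one.

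Polyadenylated RNA of 3T3 cells, an established line of mouse embryonic fibroblasts, was read by TagSeq, which sequences the 3′ ends of transcripts and therefore does not separate isoforms. Cells received medium with 0, 25, 50 or 100 µM SC-514, an inhibitor of IKKβ, for 1 hour and then 1 ng/ml IL-1β or 10 ng/ml TNF-α for 15, 30, 60, 120 or 360 min. These 40 groups and 1 unstimulated group without SC-514 had 4 libraries each, 164 in all. The groups include no cells given SC-514 alone and no unstimulated cells at later times. No label names a vehicle for 0 µM, and none says whether the 4 libraries within each group are independent cultures. The p-values then describe only how far these libraries scatter, and that scatter may be technical.

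The groups follow the stimulus field of the labels, and 2 label fields number the stimuli in opposite ways. Libraries whose data column starts with 2_ carry the IL-1β label, while the sample titles use 1_ for the records with that label and 2_ for those labelled TNF-α. Reading the column names by the titles would exchange the stimuli. Which reading is right was not tested, and column prefix and stimulus label cannot be told apart, so groups are called "labelled IL-1β" and "labelled TNF-α" throughout. Exchanging the stimuli would leave every SC-514 and time comparison as it is, and would swap the names attached to them. The unstimulated libraries have columns that start with 1_, so every comparison with them also crosses column prefixes.

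Library totals ran from 928906 to 2469454 counts (median 1282459), apart from 2 shallow libraries with 12191 and 3839 counts. The first belongs to the group labelled IL-1β with 50 µM at 30 min and held 0 Nfkbiz counts, where the limit that a count of 0 allows, 3 counts, is 170.1 CPM and lies above every group with that label. The second belongs to the group labelled TNF-α with 50 µM at 120 min and held 1. The mean of the first group was 22.8 CPM with its shallow library and 30.4 CPM without it, and that of the second group 271 and 326 CPM. Both libraries stayed in the main fit and were left out of the order of groups and of the ratios of means between times. Fibroblast markers were present in every library of normal depth, with a summed level of 7534 to 11196 CPM (counts scaled to a common library total), and 11 of 12 passed the filter on low counts. Summed macrophage markers reached 6.66 to 33.6 CPM, endothelial markers 0.742 to 21.3 and epithelial markers 0 to 5.30. In such bulk RNA, fewer expressing cells and less RNA per cell cannot be told apart.

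Nfkbiz lies on the minus strand of chromosome 16, at 55811375 to 55838899 in build GRCm38, and is protein-coding. On the side of its 5′ end, the gene Nxpe3 lies 1053 bases away. TagSeq reads of Nfkbiz come from its end, where the annotated 3′ UTR of 1355 bases covers 55811375 to 55812729. AU-rich elements of such UTRs are where some decay factors, the AU-rich element binding proteins, bind. The 30-base stretches of the mRNA strand that hold the core pentamer ATTTA are therefore shown. They are read 5′ to 3′ from the reference genome, with the pentamer in capitals.
chr16:55812589-55812618: aaacaaacccATTTAgttcactattatata
chr16:55811853-55811882: cacctcttagATTTAtgtaATTTAcctaag
chr16:55811625-55811654: ttttgctttgATTTAtacactgattctttg
The UTR held 4 pentamers and 0 copies of the nonamer TTATTTATT, which contains the pentamer. Among 1740 UTRs of tested genes with 1084 to 1693 bases, 83% held the pentamer, 27.9% held at least as many, and 8.56% held the nonamer. These letters are a description of the sequence and not of binding.

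In unstimulated cells Nfkbiz was present at 33.2, 29.4, 42.1 and 24.2 CPM, a mean of 32.2 ± 7.55 (SD, n = 4). With the TNF-α label and no inhibitor it reached 469, 513, 485 and 469.9 CPM at 60 min, a mean of 484 ± 20.4, which is 15.0 times the unstimulated mean. At 15 min the level was already 50.3 ± 2.03 CPM, and all 4 libraries (48.5 to 53.0 CPM) lay above all unstimulated ones. It was 134 ± 22.0 CPM at 30 min, 308 ± 45.0 CPM at 120 min and 70.3 ± 11.2 CPM at 360 min. The course was thus a sharp peak at 60 min, with 22.8% of the 120 min level left at 360 min, and none of these 5 groups overlapped the unstimulated libraries. At 120 min the libraries held 337, 241, 327 and 326 CPM, so that 1 of the 4 stood well below the other 3.

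With the IL-1β label and no inhibitor the same gene varied less. It was present at 58.8, 45.9, 48.3 and 59.2 CPM at 60 min, a mean of 53.0 ± 6.95 and 1.65 times the unstimulated mean. At the other 4 times its mean lay between 25.5 and 41.7 CPM, and libraries overlapped the unstimulated ones. The time of the highest mean was nonetheless the same, 60 min, under both labels. Without inhibitor the level with the IL-1β label was lower by 0.80 on the log2 scale at 15 min, 1.78 at 30 min, 3.19 at 60 min, 2.89 at 120 min and 1.45 at 360 min, and the libraries did not overlap at any time. These are the values on which the gene was selected. By label, the order of the stimuli is the reverse of the one known from the cell types named above. The labels also differ in dose, 1 ng/ml IL-1β and 10 ng/ml TNF-α, so stimulus and dose cannot be told apart.

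**Figure D1:**
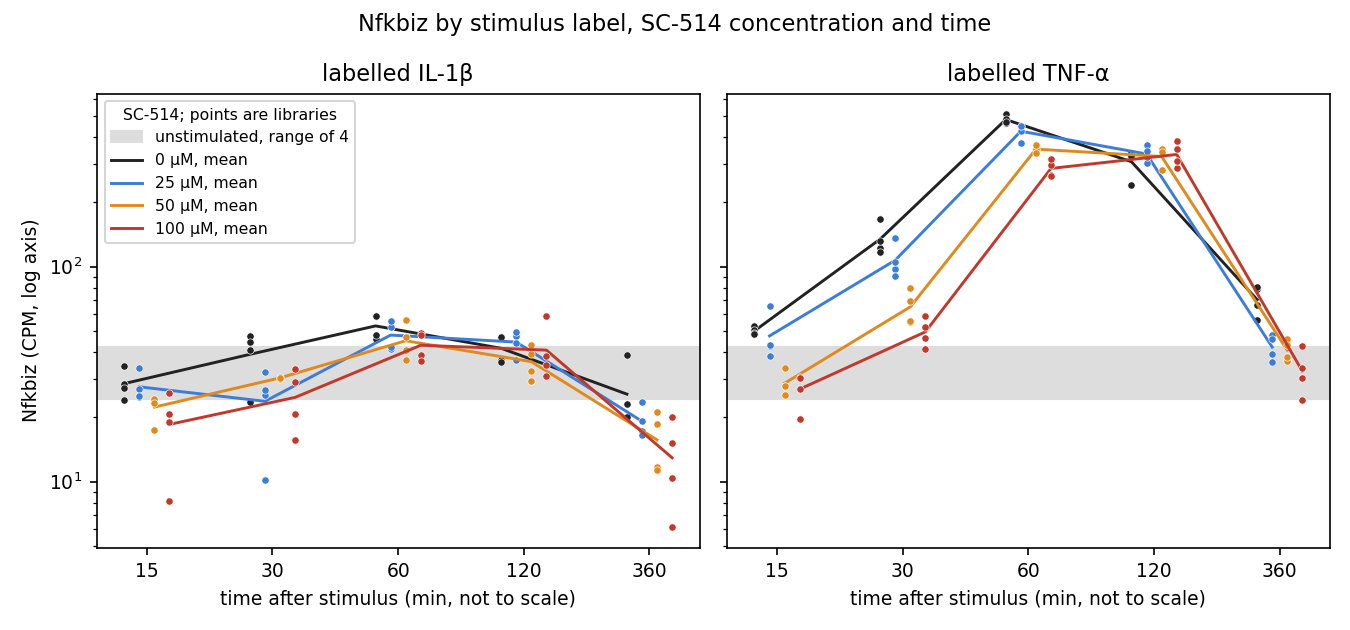
Nfkbiz level (CPM, log axis) against time after stimulus for libraries labelled IL-1β (left) and TNF-α (right); points are libraries, lines join the means of each SC-514 concentration, the grey band spans the 4 unstimulated libraries, and the 2 shallow libraries are left out. With the TNF-α label every library shown at 60 min holds at least 265 CPM, whereas with the IL-1β label no library exceeds 59.2 CPM.

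Ordered by mean level without the shallow libraries, the first 12 of the 41 groups all carried the TNF-α label. The highest group with the IL-1β label, 0 µM at 60 min, ranked 13, the unstimulated group ranked 28, and the lowest, 12.9 ± 5.98 CPM, was the group labelled IL-1β with 100 µM at 360 min. Neighbours in this order overlapped in 36 of 40 pairs. The 4 exceptions lay among the highest groups: 0 µM above 25 µM and 25 µM above 50 µM at 60 min, 100 µM at 60 min above 0 µM at 30 min, and 25 µM at 30 min above 0 µM at 360 min, all labelled TNF-α. In 13 of the 20 groups with that label every library lay above the highest unstimulated library, against 1 of the 20 with the IL-1β label. In 3 groups with the IL-1β label, and in 0 with the TNF-α label, every library lay below the lowest unstimulated library.

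SC-514 lowered the level of Nfkbiz in libraries labelled TNF-α, with the deepest fitted change at 30 min. No difference was detected at 120 min. Without a group given SC-514 alone, a smaller rise and a lower unstimulated level cannot be told apart. At 60 min the libraries held 427, 453, 450.1 and 378 CPM at 25 µM, then 349, 355, 367 and 338 CPM at 50 µM, and 268, 297, 265 and 317 CPM at 100 µM. Every step of the dose series lowered all 4 libraries below all 4 of the step before. Against 0 µM, 100 µM lowered Nfkbiz by a log2 change of -0.75 (SE 0.116), to 59.3% of the level without inhibitor, with an adjusted p of 7.09e-08 in edgeR's quasi-likelihood test with Benjamini-Hochberg adjustment. Of the 10766 genes tested, 22% were called in this comparison. Its reference, like that of every test against 0 µM that follows, is the set of libraries on which the gene was chosen.

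Earlier in the response Nfkbiz was lowered too, and differences between times were not tested. At 30 min Nfkbiz stood at 122, 117, 132 and 166 CPM without inhibitor, at 97.7, 90.3, 105 and 136 CPM with 25 µM, at 79.2, 55.5, 55.9 and 69.6 CPM with 50 µM, and at 46.5, 41.2, 52.4 and 58.9 CPM with 100 µM. Libraries at 50 and 100 µM lay below all those at 0 and 25 µM, while 25 µM overlapped 0 µM. The log2 change at 100 µM was -1.44 (SE 0.161, edgeR adjusted p 8.69e-13), which leaves 36.8% of the level, where 17.9% of genes were called. At 15 min the means were 47.6 ± 12.4, 28.7 ± 3.57 and 26.9 ± 5.19 CPM at 25, 50 and 100 µM. Libraries at each of these concentrations overlapped the unstimulated ones. With 25 µM the lowest library held 38.4 CPM, where the highest unstimulated one held 42.1 CPM. The log2 change at 100 µM and 15 min was -0.91 (SE 0.202, edgeR adjusted p 0.000235), where 22.2% of genes were called.

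At 120 min the 4 concentrations met. Nfkbiz was present at 303, 324, 367 and 345 CPM with 25 µM, at 107, 283, 353 and 341 CPM with 50 µM, of which the first is the shallow library, and at 286, 309.8, 384 and 351 CPM with 100 µM. All of these groups overlapped the libraries without inhibitor. The log2 change at 100 µM was 0.11 (SE 0.117, edgeR adjusted p 0.519, 26.5% of genes called), with a 95% interval of -0.12 to 0.34, which spans 0.921 to 1.27 times the level without inhibitor. Because 1 library at 0 µM stood low at this time, the value was recomputed without each library number in turn, and it then ranged from 0.03 to 0.23.

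The time of the highest mean was 60 min at 0, 25 and 50 µM and 120 min at 100 µM, and the ratio of the 120 min mean to the 60 min mean was 0.636, 0.784, 0.925 and 1.16 at 0, 25, 50 and 100 µM. The ratio at 50 µM leaves out the shallow library. With that library the 120 min mean was 271 CPM and not 326 CPM, beside 352 CPM at 60 min, so the ratio would be lower. The 120 min and 60 min libraries did not overlap at 0 or 25 µM and overlapped at 50 and 100 µM. At 100 µM the log2 change from 60 to 120 min was 0.22 (SE 0.115), with a 95% interval of -0.008 to 0.447. In edgeR's test the unadjusted p was 0.0588 and the adjusted p 0.675, in a comparison in which 1.84% of genes were called. The later peak at 100 µM was thus not distinguishable from a plateau. Without the libraries numbered 3 the log2 change was 0.10, and the range over the numbers left out was 0.10 to 0.26. The change from 60 to 120 min differed between 100 and 0 µM by 0.87 on the log2 scale (SE 0.165), a value picked after the levels were seen and therefore given without a test.

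At 360 min the groups with and without inhibitor lay apart again. Libraries held 66.1, 78.6, 56.3 and 80.2 CPM without inhibitor and 23.9, 30.2, 42.6 and 33.9 CPM with 100 µM, which did not overlap. The means with 25 and 50 µM were 42.3 ± 5.63 and 40.9 ± 4.51 CPM, also below every library without inhibitor. The log2 change at 100 µM was -1.10 (SE 0.179, edgeR adjusted p 2.47e-07), and 26.8% of genes were called. The mean of 32.7 ± 7.81 CPM with 100 µM lay beside the unstimulated mean, and 9.82% of its 120 min level was left, against 22.8% without inhibitor.

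**Figure D2:**
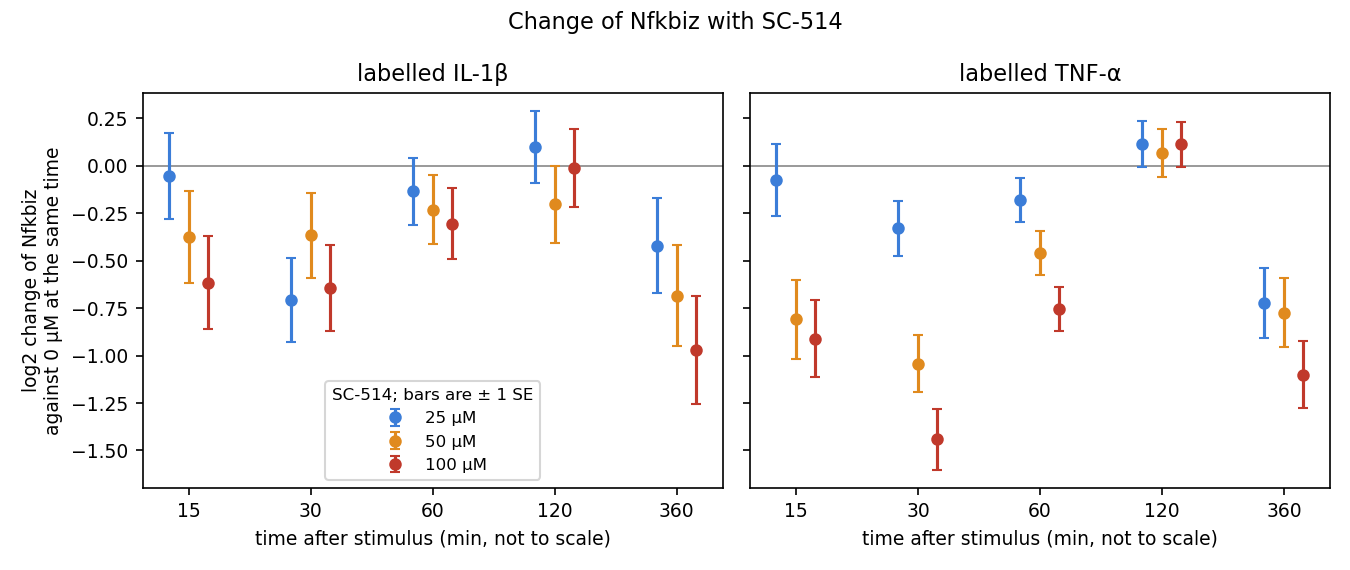
Log2 change of Nfkbiz at 25, 50 and 100 µM SC-514 against 0 µM at the same time, for libraries labelled IL-1β (left) and TNF-α (right); points are fitted values and bars ± 1 SE, and the 3 concentrations share the 0 µM libraries. With the TNF-α label the values at 100 µM lie at -0.91, -1.44 and -0.75 at 15, 30 and 60 min, return to 0.11 at 120 min and lie at -1.10 at 360 min.

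Over the 5 times together, 25 and 50 µM each changed Nfkbiz with the TNF-α label, and 100 µM was compared with 25 µM. The mean log2 change over the times was -0.24 at 25 µM (edgeR F test over 5 times, adjusted p 0.00343, 23.8% of genes called) and -0.60 at 50 µM (adjusted p 7.20e-13, 35.9% called). The change at 25 µM was no longer called without the libraries numbered 2 (adjusted p 0.106) or 4 (adjusted p 0.0758). Between 25 and 100 µM, a comparison that uses no library without inhibitor, the mean log2 change was -0.58 (edgeR adjusted p 5.75e-12), and 27.8% of genes were called. Even at 100 µM Nfkbiz differed from unstimulated cells, with a mean log2 change of 1.38 (edgeR F test, adjusted p 4.50e-64, 41.7% called). That mean was carried by 60 and 120 min, where Nfkbiz was 8.89 and 10.4 times the unstimulated level. At 15, 30 and 360 min libraries overlapped the unstimulated ones. The reference of this test, as of the same test with the IL-1β label, is the group beside which the 0 µM levels were described.

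With the IL-1β label, where the rise itself was small, SC-514 lowered Nfkbiz at 30 and 360 min, and at 60 and 120 min no difference was detected. At 360 min the libraries held 39.0, 23.1, 20.1 and 20.1 CPM without inhibitor and 20.0, 6.14, 15.1 and 10.4 CPM with 100 µM, which lay just below them without overlap. The log2 change was -0.97 (SE 0.286, edgeR adjusted p 0.00547), where 29.5% of genes were called, and without the libraries numbered 2 it was -0.79 (adjusted p 0.0594). At 30 min the libraries held 47.5, 44.6, 41.04 and 23.4 CPM without inhibitor and 20.5, 33.5, 15.6 and 29.1 CPM with 100 µM, and they overlapped. The log2 change there was -0.64 (SE 0.226, edgeR adjusted p 0.0277, 22.5% of genes called), and it was not called without the libraries numbered 1 (adjusted p 0.231) or 3 (adjusted p 0.232).

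At 15 min the means with the IL-1β label were 28.6 ± 4.47 CPM without inhibitor and 18.5 ± 7.48 CPM with 100 µM, a log2 change of -0.62 (SE 0.246) that narrowly missed the threshold (edgeR adjusted p 0.0540, 24.8% of genes called) and passed it without the libraries numbered 4 (-0.84, adjusted p 0.0265). At 60 min the mean with 100 µM was 43.1 ± 6.51 CPM, with a log2 change of -0.30 (SE 0.184, edgeR adjusted p 0.236, 25.9% called). Its 95% interval was -0.67 to 0.06, and it was -0.19 without the libraries numbered 1. At 120 min the mean was 40.9 ± 12.5 CPM and the log2 change -0.01 (SE 0.205, edgeR adjusted p 0.970, 30.4% called), with an interval of -0.42 to 0.39 and a value of -0.32 without the libraries numbered 2. For 100 µM against no inhibitor, 120 min was thus again the time with the smallest fitted change.

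Across the 5 times, 50 µM lowered Nfkbiz with the IL-1β label by a mean log2 change of -0.37 (edgeR adjusted p 0.0455), in a comparison where 40% of genes were called, and this call was lost without the libraries numbered 1 (adjusted p 0.684) or 3 (adjusted p 0.0821). The mean change at 25 µM was -0.24 (adjusted p 0.0664, 28.7% called) and that from 25 to 100 µM -0.27 (adjusted p 0.176, 32% called), and neither passed the edgeR test. Without the libraries numbered 3 the latter was -0.14. From 60 to 120 min at 100 µM the log2 change was -0.06 (SE 0.209, edgeR adjusted p 0.976, 1.65% called). Against unstimulated cells, 100 µM with the IL-1β label gave a mean log2 change of -0.33 over the 5 times (edgeR F test, adjusted p 1.26e-09, 45.8% called), with levels above the unstimulated mean at 60 and 120 min and below it at 15, 30 and 360 min. This mean rests partly on the libraries numbered 3: without them it was -0.10 (adjusted p 7.40e-07), and it was -0.50 without those numbered 4 (adjusted p 8.25e-08).

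Levels below those of all unstimulated libraries were found with the IL-1β label at 360 min. There the libraries held 23.5, 17.2, 19.2 and 16.6 CPM at 25 µM, 11.7, 21.2, 18.5 and 11.3 CPM at 50 µM, and 20.0, 6.14, 15.1 and 10.4 CPM at 100 µM. All 12 lay below the lowest unstimulated library, 24.2 CPM. The fitted log2 differences from the unstimulated group were -0.75 (SE 0.237), -1.02 (SE 0.254) and -1.30 (SE 0.272), in order of dose. Without inhibitor the difference was -0.33 (SE 0.232), and 1 of the 4 libraries, at 39.0 CPM, lay within the unstimulated range.

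The label difference was also present in the libraries with inhibitor, which are not the 0 µM libraries named for the choice of the gene. Here too the labels differ in dose as well as in stimulus. Because earlier results of these data were known when the gene was chosen, the tests below are not independent support for the choice. Nfkbiz was lower with the IL-1β label by a mean log2 difference over 5 times of -2.03 at 25 µM (edgeR F test, adjusted p 2.39e-55), -1.79 at 50 µM (adjusted p 1.66e-50) and -1.71 at 100 µM (adjusted p 9.13e-48). In these comparisons 11.6%, 18.6% and 20.9% of genes were called. At 100 µM the log2 difference was -0.51 (SE 0.240) at 15 min, -0.99 (SE 0.219) at 30 min, -2.74 (SE 0.152) at 60 min, -3.01 (SE 0.158) at 120 min and -1.32 (SE 0.253) at 360 min. The libraries overlapped at 15 min and at no later time. The 2 shallow libraries enter the 50 µM comparison, and without them the mean difference there was -1.80.

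**Figure D3:**
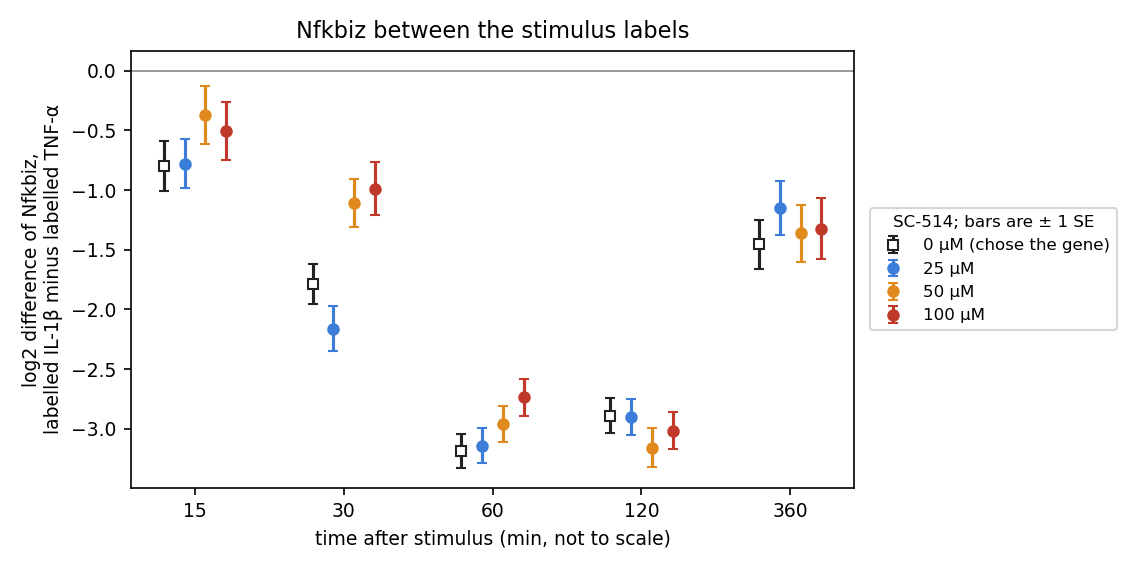
Log2 difference of Nfkbiz, labelled IL-1β minus labelled TNF-α, at 5 times and 4 SC-514 concentrations; points are fitted values, bars ± 1 SE, and open squares mark the 0 µM values that chose the gene. The difference runs deepest at 60 and 120 min, between -2.74 and -3.19 over the 4 concentrations, and at 30 min it is -1.78 at 0 µM and -0.99 at 100 µM.

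Whether the inhibitor's effect itself differed by label was tested without the 0 µM libraries, as the change from 25 to 100 µM. The change was larger with the TNF-α label by a mean of 0.31 on the log2 scale, with an unadjusted p of 0.00275 and an adjusted p of 0.0977 in edgeR's F test over 5 times, where 2.15% of genes were called. The difference therefore did not pass the threshold. By time it was 0.27 (SE 0.320) at 15 min, 1.17 (SE 0.305) at 30 min, 0.40 (SE 0.223) at 60 min, -0.11 (SE 0.235) at 120 min and -0.17 (SE 0.350) at 360 min. The largest value, at 30 min, sits where Nfkbiz was 107 ± 19.9 CPM at 25 µM with the TNF-α label and 23.7 ± 9.49 CPM with the IL-1β label.

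The other IκB and NF-κB genes give the family context. At 60 min with the TNF-α label, 100 µM SC-514 raised 1 and lowered 5 of these 10 genes against 0 µM, with a median log2 change of -0.31, while the median of all genes tested was 0.01 and 22% of them were called. Bcl3 and Nfkbid, which encode the other nuclear IκB proteins Bcl-3 and IκBNS, had log2 changes of -2.00 (SE 0.215, adjusted p 8.74e-14) and -3.03 (SE 0.55, adjusted p 3.08e-06). Nfkbib and Nfkbie, the cytoplasmic inhibitors IκBβ and IκBε, had log2 changes of -0.87 (SE 0.16, adjusted p 6.96e-06) and -0.71 (SE 0.17, adjusted p 0.000598). Nfkbiz thus moved in the same direction as these 4, and its change of -0.75 lay between those of Nfkbib and Nfkbie.

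At 120 min with the TNF-α label the counts were the same, 1 of the 10 higher and 5 lower, with a median of -0.28, where 26.5% of all genes were called. Nfkbia, which encodes the classical inhibitor IκBα, rose by 1.10 on the log2 scale (SE 0.13, adjusted p 2.34e-12), and Nfkb1, which encodes p105 and p50, fell by 1.20 (SE 0.099, adjusted p 5.43e-22). Bcl3 fell by 0.97 (SE 0.17, adjusted p 2.38e-06) and Nfkbib by 0.76 (SE 0.14, adjusted p 2.53e-06), where Nfkbiz had a log2 change of 0.11. Under the IL-1β label 1 of the 10 rose and 6 fell at 60 min, with a median of -0.41 (25.9% of all genes called), and 0 rose and 4 fell at 120 min, with a median of -0.45 (30.4% called). Differences between these times were not tested.

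**Figure D4:**
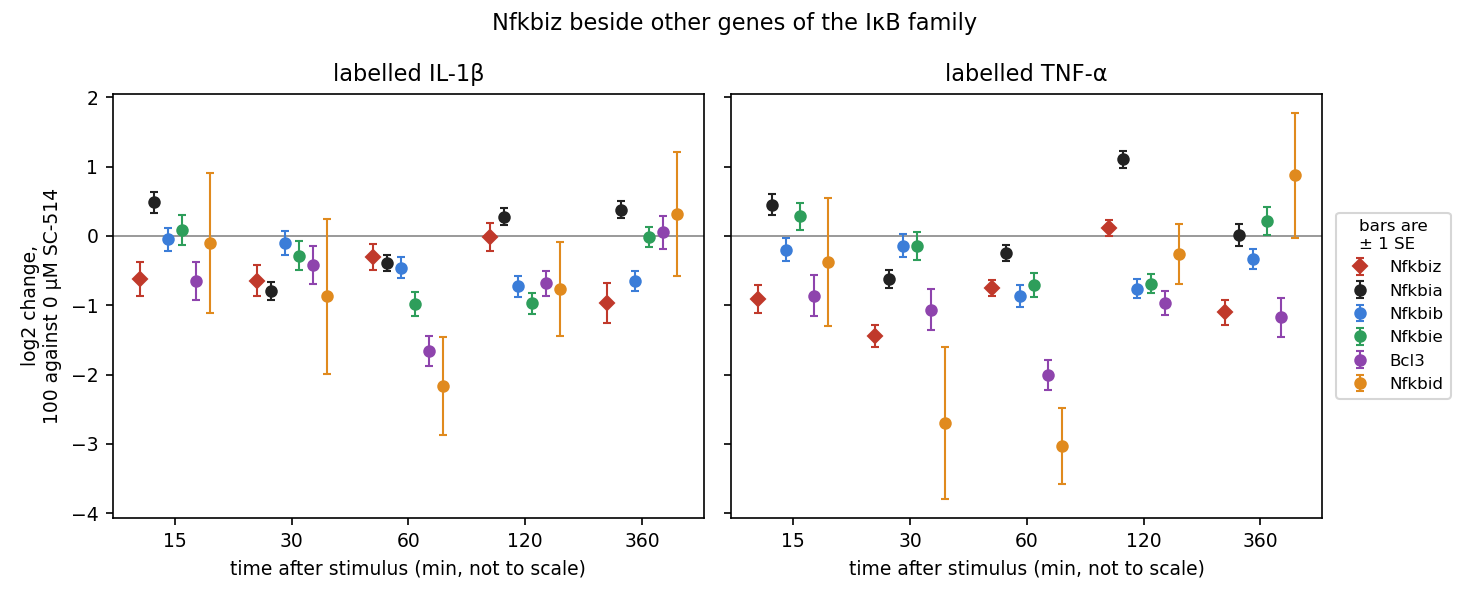
Log2 change at 100 against 0 µM SC-514 of Nfkbiz and 5 other IκB family genes by time, labelled IL-1β (left) and TNF-α (right); points are fitted values and bars ± 1 SE. At 120 min with the TNF-α label Nfkbiz (0.11) lies near 0, Nfkbia (1.10) above it and Bcl3 (-0.97) below it.

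A further list held genes known from other cell types to need IκBζ. Of the 14 listed, 13 passed the filter on low counts and Il12b did not. A gene can pass through the groups in which it is high alone, so these counts are a description and nothing about the list is read from them. At 60 min with the TNF-α label 0 rose and 12 fell, with a median log2 change of -1.83, where 22% of all genes were called. At 120 min 1 rose and 10 fell, with a median of -1.60, against a median of 0.03 and 26.5% called for all genes tested. Il6, for the cytokine IL-6, had log2 changes of -4.55 (SE 0.27, adjusted p 1.56e-30) at 60 min and -2.99 (SE 0.23, adjusted p 1.86e-22) at 120 min. Cxcl5, for a neutrophil chemokine, had log2 changes of -2.95 (SE 0.16, adjusted p 4.89e-33) and -2.48 (SE 0.15, adjusted p 1.22e-30). At 60 min Il23a, for a subunit of IL-23, fell by 3.73 and Ccl20, for a chemokine, by 2.10. At 120 min Saa3, for an acute-phase protein, fell by 2.10 and Lcn2, for lipocalin-2, by 1.55. With the IL-1β label, where Nfkbiz itself was low, 0 rose and 10 fell at 60 min, with a median of -1.63 (25.9% of all genes called), and 1 rose and 9 fell at 120 min, with a median of -1.17 (30.4% called).

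Factors that act on the stability of Nfkbiz or similar mRNAs moved in both directions. At 60 min with the TNF-α label 2 of the 11 rose and 4 fell at 100 µM, with a median log2 change of -0.19, against a median of 0.01 and 22% called for all genes. Zc3h12a, for Regnase-1, fell by 0.93 (SE 0.15, adjusted p 6.73e-08), and Zfp36l2 and Zfp36l1, for proteins that bind AU-rich elements, by 0.75 (SE 0.09) and 0.57 (SE 0.09). Arid5a, for an mRNA-stabilising protein, rose by 1.16 (SE 0.18, adjusted p 3.33e-08). At 120 min 3 rose and 3 fell, with a median of -0.05, against 0.03 and 26.5% called for all genes: Zfp36, for the decay factor tristetraprolin, rose by 2.88 (SE 0.26, adjusted p 2.10e-18), Arid5a by 0.90 and Rc3h1, for Roquin-1, by 0.50, while Zfp36l2 fell by 0.65.

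Among the listed receptor, adaptor and kinase genes, 1 of 22 rose and 5 fell at 60 min with the TNF-α label. Their median log2 change was -0.14, and the share called is near the 22% called over all genes. At 120 min 1 rose and 8 fell, where 26.5% of all genes were called. Il1rl1, for the IL-33 receptor chain ST2, fell by 1.83 (SE 0.11, adjusted p 1.56e-30) at 60 min, Birc3, for an ubiquitin ligase of the TNF receptor complex, by 0.73 (SE 0.15) and Myd88, for the adaptor of the IL-1 receptor, by 0.49 (SE 0.17), while Tollip, for an inhibitory adaptor, rose by 0.34 (SE 0.12). Of 7 feedback genes 0 rose and 4 fell at 60 min, with a median of -0.43 (22% of all genes called), and 2 rose and 2 fell at 120 min (26.5% called). Tnfaip3, for the deubiquitinase A20, fell by 1.51 (SE 0.15, adjusted p 3.26e-16) at 60 min and rose by 0.51 (SE 0.18, adjusted p 0.0237) at 120 min. Socs3, an inhibitor of cytokine signalling, had log2 changes of -1.63 and -0.80 at these times, and Tnip1, for a partner of A20, of -1.05 and -1.03. Dusp1, for a MAP kinase phosphatase, fell by 0.43 at 60 min and rose by 1.54 at 120 min.

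The genes whose group levels were most like those of Nfkbiz were found by Pearson correlation of log2 CPM over the 41 groups, among 10418 genes with at least 5 CPM in some group. This is a description, and the groups share libraries of 1 experiment and 1 time axis. Zc3h12a came first with r = 0.86, followed by Cxcl2 at 0.82, Mcl1 at 0.77, Cxcl1 at 0.76, Ier3 at 0.76, Lama5 at 0.75, Il23a at 0.74 and Tnfsf9 at 0.74. The median r over all candidates was -0.01 and the ninth value 0.74, so the end of the list is a matter of small differences. By Spearman's rho 5 of the 8 were again among the first 8, and without the 11 groups at 0 µM 3 of the 8 were, with Zc3h12a (0.90) and Cxcl2 (0.88) still the first pair.

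Likeness in shape did not mean the same time course in detail. Zc3h12a went from 78.6 CPM at 60 min to 144 CPM at 120 min with the TNF-α label and no inhibitor, so its higher value came later than that of Nfkbiz. At 100 µM it went from 40.5 to 113 CPM. Cxcl2, for a neutrophil chemokine, was at 0 CPM in unstimulated cells and went from 115 CPM at 60 min to 26.5 CPM at 120 min without inhibitor, and from 25.0 to 37.6 CPM with 100 µM. Mcl1, for an anti-apoptotic protein, and Lama5, for a laminin chain, varied far less, with 428 CPM against 295 CPM for Mcl1 at 60 min and in unstimulated cells. In their annotated 3′ UTRs, Cxcl2 held 11 ATTTA pentamers and 4 nonamers, Cxcl1 7 and 2, and Il23a 6 and 1. Zc3h12a, Mcl1, Ier3, Lama5 and Tnfsf9, like Nfkbiz, held 0 nonamers. Over all tested genes with an annotated 3′ UTR, 8.87% held the nonamer.

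**Figure D5:**
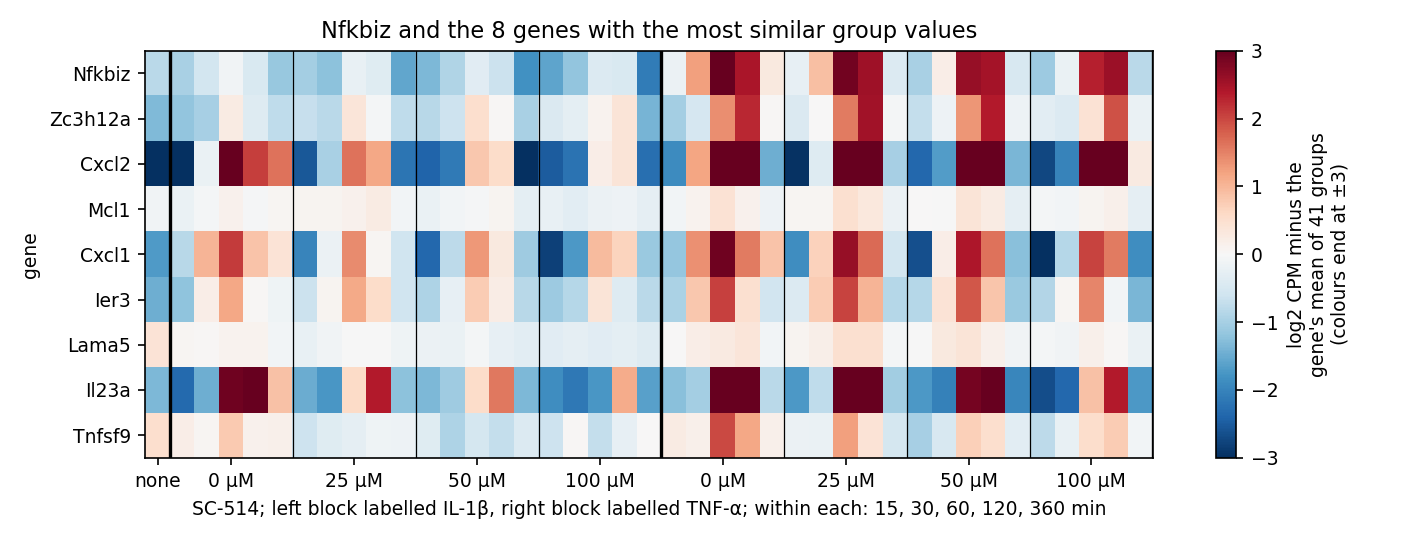
Log2 CPM of Nfkbiz and the 8 genes most like it in each of the 41 groups, as the difference from the gene's own mean over groups (colour, ending at ±3); columns are the unstimulated group, then libraries labelled IL-1β and TNF-α by SC-514 concentration and time. Nfkbiz and Cxcl2 are high at 60 and 120 min with the TNF-α label at every concentration, Zc3h12a and Il23a are paler there at 60 min with 100 µM, and Mcl1 and Lama5 stay pale throughout.

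The spread between libraries was set against counting error. It exceeded counting error alone in 29 of the 41 groups and was over 2 times as large in 8. Nfkbiz had 21770 counts in all libraries together, and at 60 min with the TNF-α label and no inhibitor the coefficient of variation between libraries was 4.21%, where counting alone gives 4.35%. At 120 min with that label it was 14.6% without inhibitor and 13.0% with 100 µM, where counting gives 5.33% and 4.05%. At 360 min with the IL-1β label and 100 µM it was 46.3%, where counting gives 26.1%. The limit that a count of 0 allows, 3 counts, corresponds to 1.18 to 3.41 CPM in libraries of normal depth, and every such library lay above it.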

How the data were processed

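Each library was deposited as 1 column of whole-number read counts per gene, made by the authors with Bowtie2 and GRCm38 (mm10) among the names in the submitters' processing notes; the counting tool and its strand setting are not stated in these sources. Each of the 164 libraries stands for 4 sample records, 656 in all, and was used once. Of 22070 identifiers, 21858 matched a gene symbol.

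Counts were analysed in R 4.3.3 with edgeR 4.0.16 (TMM factors, a filter on low counts by group, robust quasi-likelihood fit). One model covered all 41 groups (123 residual degrees of freedom), 10766 genes were tested, and p-values were adjusted by Benjamini-Hochberg within each of 24 comparisons at 0.05. Tests over 5 times were joint F tests, whose log2 value is the mean over times. CPM used library totals scaled by TMM factors (0.934 to 1.08 in libraries of normal depth). Intervals used scipy and the SE of the fitted log2 change, which includes the spread between libraries. Limits for 0 counts cover counting error only. The procedure was tested on simulated data. DESeq2 1.42.0, other size factors, no filter, a replicate block and left-out libraries (a number at a time, in every group) were tried as alternatives.

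Nfkbiz and the gene lists were chosen with earlier results of these data known. Up to 4 members of a list are named, those with the smallest adjusted p, and the 8 genes most like Nfkbiz were taken by Pearson r with predicted gene models left out. Library numbers were not taken to pair the groups: in 0 of 10 comparisons of 100 with 0 µM did all same-numbered libraries deviate together with a correlation above 0.1. No 2 libraries were identical. Sequences come from GRCm38 with its GENCODE annotation. The promoter and protein of Nfkbiz are not used here.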

Additional observations from a re-analysis of the deposited data

Results flagged for a closer look

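In 4 of the 41 groups, 1 library stood apart from the other 3 by the usual gap test for 4 values, which chance alone passes in about 1 of 20 groups. With the TNF-α label, no SC-514 and 120 min, the library numbered 2 held 240.9 CPM of Nfkbiz, where the others held 326 to 337. With the IL-1β label, no SC-514 and 360 min, the library numbered 1 held 38.97 CPM, where the others held 20.1 to 23.1. Labelled IL-1β, at 50 µM and 15 min, the library numbered 3 held 17.38 CPM, where the others held 23.2 to 24.3. Labelled IL-1β, at 50 µM and 30 min, the library numbered 1 held 0 CPM, where the others held 30.1 to 30.9, and this is the shallow library of 12191 counts.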

How the results depend on the processing

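Over 10 alternatives and 24 comparisons, 224 of 240 values for Nfkbiz kept their direction or stayed without a call, and their side of the threshold; 8 calls were lost, 8 were gained and 0 were reversed. With the TNF-α label the calls at 15, 30, 60 and 360 min, at 50 µM and between 25 and 100 µM held in all of them, as did the label differences.

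With other size factors the 50 µM change with the IL-1β label was -0.36 (adjusted p 0.0806). Without the filter, 4 results passed: 100 µM at 15 min with the IL-1β label (-0.61), 25 µM (-0.24) and 25 to 100 µM (-0.28) with that label, and the label difference in the change from 25 to 100 µM (0.29). With DESeq2, 25 µM with the IL-1β label (-0.24) and that label difference (0.29) passed, and with only the groups compared, 100 µM at 15 min did (-0.61). The cause was not tested. Leaving out 1 library number ranged from -0.84 to -0.46 for 100 µM with the IL-1β label at 15 min, -0.90 to -0.45 at 30 min and -1.13 to -0.79 at 360 min, from -0.46 to -0.23 for 50 µM with that label, and from -0.31 to -0.20 for 25 µM with the TNF-α label.

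With a replicate block no call for Nfkbiz changed, and the change at 100 µM, 60 min and the TNF-α label was -0.76.

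The number of genes called, of which Nfkbiz is 1 or none, moved by over 1.5 times in these cases. For the label difference in the change from 25 to 100 µM it was 232, and 358 without the filter, 147 without the libraries numbered 2 and 95 without those numbered 3. For 120 against 60 min at 100 µM it was 178 with the IL-1β label, and 102, 117 and 116 without numbers 1, 3 and with DESeq2, and 198 with the TNF-α label, and 128 and 117 without numbers 3 and 4. For the label differences at 25, 50 and 100 µM it was 1253, 2006 and 2249, and 774, 1234 and 1391 without number 3, and 810 at 25 µM with DESeq2. For 100 µM with the IL-1β label at 30 min it was 2424, and 1615 without number 4.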
